A study of Mus musculus with 12 samples.

Results

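The 71 genes described here carry symbols of mitochondrial ribosomal proteins. All but Mrps36, which stays in every count over the 71, are taken to encode proteins of the mitochondrial ribosome. The 71 genes were chosen by symbol: a gene was a member if a probe set with exactly 1 symbol on the platform annotation carried an Mrpl or Mrps name followed by a number. Where a gene had several such probe sets the one with the highest mean over the 12 arrays stood for it. The 71 members, 43 with Mrpl and 28 with Mrps symbols, were part of 22180 genes that had a single-symbol probe set. No measured difference entered this symbol rule, but the gene family was chosen with earlier results of these data known. A further 7 symbols (Mrps6, Mrpl30, Mrpl33, Mrpl41, Mrpl43, Mrpl44 and Mrpl53) were found only on probe sets that also list another gene and were not analysed here. All 71 members lay above the filter on dim genes, a mean log2 intensity of 4.72, and entered the test among 17749 genes.

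The arrays came from a mouse model of acute myeloid leukemia, in which progenitor and stem cells expressing the fusion oncogene MLL-AF9 were transplanted into recipients irradiated with 10 Gy, 50000 cells per recipient, and marrow was taken when each recipient became ill. All groups were bone marrow of strain C57BL/6J and carried MLL-AF9, and they differed in AMPK, the kinase that senses cellular energy: wild-type leukemias had floxed alleles (AMPKfl/fl) and knockout leukemias deleted ones (AMPKΔ/Δ). In each genotype 3 samples were all GFP+ cells (whole leukemia) and 3 were L-GMP, leukemic granulocyte-macrophage progenitors gated as GFP+, lin-, c-kit+, CD16/32+ and CD34+, with 5000 cells sorted for a sample. The labels used here do not name the AMPK subunit deleted, the Cre that deleted it, or the age of the mice, and they do not say that samples of a group came from separate animals, so the spread behind the tests is that between samples as labelled and may be technical.

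The mitochondrial ribosome translates the few messenger RNAs that mitochondrial DNA encodes, all of which specify membrane subunits of the respiratory chain and ATP synthase. Its RNA is made inside the organelle, but every one of its proteins is encoded in the nucleus, translated in the cytosol and imported. Acute myeloid leukemia cells are known to depend on mitochondrial translation, which the antibiotic tigecycline inhibits. Some of these proteins descend from bacterial ribosomal proteins, and the rest were added during the evolution of mitochondria. By this division 15 members were small-subunit proteins with a bacterial counterpart and 10 without, and 27 were large-subunit proteins with a counterpart and 18 without. Mrps18a and Mrps30 are counted in the large subunit, where structures place them in spite of their symbols. The remaining member, Mrps36, is named as a ribosomal protein but is now known as a subunit of the 2-oxoglutarate dehydrogenase complex.

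The start regions of 5 members are shown because they carry the letters that many members share and because 4 of the genes (Mrps26, Mrps27, Mrpl34 and Mrps18a) had the lowest p-values among members in the comparison of L-GMP with whole leukemia, while Mrps11 begins close to another member. Each is the RefSeq window on build GRCm38.p6 from 250 bases before to 50 bases after the gene's start, written 5′ to 3′ on the gene's strand, with the searched motifs in capitals. The windows are chr2:130563507-130563806 for Mrps26, chr13:99344536-99344835 for Mrps27, chr8:71464676-71464975 for Mrpl34, chr17:46110754-46111053 for Mrps18a and chr7:78782881-78783180 for Mrps11, all on the plus strand.
Mrps26: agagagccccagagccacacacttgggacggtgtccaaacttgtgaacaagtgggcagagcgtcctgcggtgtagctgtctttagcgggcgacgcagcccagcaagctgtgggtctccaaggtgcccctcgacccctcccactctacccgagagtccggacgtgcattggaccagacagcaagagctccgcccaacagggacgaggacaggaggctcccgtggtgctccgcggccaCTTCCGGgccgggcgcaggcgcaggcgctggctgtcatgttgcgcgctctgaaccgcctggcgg
Mrps27: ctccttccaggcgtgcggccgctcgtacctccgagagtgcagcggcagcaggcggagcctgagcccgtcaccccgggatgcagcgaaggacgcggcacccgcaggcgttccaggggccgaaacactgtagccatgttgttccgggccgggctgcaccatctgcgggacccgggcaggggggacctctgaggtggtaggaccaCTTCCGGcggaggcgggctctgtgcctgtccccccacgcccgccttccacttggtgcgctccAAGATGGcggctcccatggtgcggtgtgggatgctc
Mrpl34: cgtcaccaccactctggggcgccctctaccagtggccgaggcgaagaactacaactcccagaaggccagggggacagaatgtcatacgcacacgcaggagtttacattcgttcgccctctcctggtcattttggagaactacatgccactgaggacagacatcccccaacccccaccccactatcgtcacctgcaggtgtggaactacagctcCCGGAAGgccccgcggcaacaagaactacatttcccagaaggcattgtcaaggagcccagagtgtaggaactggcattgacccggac
Mrps18a: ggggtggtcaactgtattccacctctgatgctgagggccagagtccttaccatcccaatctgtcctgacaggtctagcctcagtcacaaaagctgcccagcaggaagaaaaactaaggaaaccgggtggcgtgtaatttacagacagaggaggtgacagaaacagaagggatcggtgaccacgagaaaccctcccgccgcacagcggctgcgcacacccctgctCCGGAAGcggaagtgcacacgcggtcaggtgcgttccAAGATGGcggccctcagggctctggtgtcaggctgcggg
Mrps11: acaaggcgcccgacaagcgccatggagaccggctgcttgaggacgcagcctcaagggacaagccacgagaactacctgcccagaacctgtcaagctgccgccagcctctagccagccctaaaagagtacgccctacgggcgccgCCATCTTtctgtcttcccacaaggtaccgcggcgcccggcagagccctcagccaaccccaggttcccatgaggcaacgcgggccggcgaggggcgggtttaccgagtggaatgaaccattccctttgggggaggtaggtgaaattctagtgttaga
The capitals in Mrps26 and Mrpl34 mark the ETS/GABP letters, those in Mrps27 and Mrps18a mark these letters and, downstream of the start, the YY1 letters, and the capitals in Mrps11 mark the YY1 letters. GABP is an ETS-family factor known to drive nuclear genes of mitochondrial proteins, and YY1 is a zinc finger factor.

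A start region was found for 62 of the 71 members; Mrpl4, Mrpl13, Mrpl15, Mrpl19, Mrpl38, Mrpl54, Mrps28, Mrps34 and Mrps35 were not matched. On either strand, 23 of the 62 (37.1%) held the ETS/GABP letters CCGGAAG, against 15.0% of the 13755 tested genes with a start region and 9.93% of all 27025 genes with one. The YY1 letters AAGATGG stood in 13 members (21.0%), against 7.5% of tested genes and 7.28% of all genes. The letters GCATGCG from the site of NRF1, a second known regulator of mitochondrial genes, stood in 7 members (11.3%), against 5.91% of tested and 4.01% of all genes. The E-box CACGTG, the letters MYC binds, stood in 5 members (8.06%), against 10.3% and 8.09%, and the TATA letters TATAAA also in 5, against 11.2% and 15.7%. The median GC content of the members' windows was 58.0%, close to the 58.7% of tested genes and above the 52.8% of all genes. These are matches of letters and were not tested for binding.

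In Mrps26 the ETS/GABP letters began 14 bases before the start, in Mrps18a 26, in Mrpl34 37 and in Mrps27 48. The next members by p with a start region, Mrpl2, Mrps30 and Mrps15, are not shown and held no ETS/GABP letters. Of the searched motifs Mrpl2 held only the E-box, and Mrps30 and Mrps15 held none. The median difference between L-GMP and whole leukemia was 0.18 on the log2 scale in the 23 members with the ETS/GABP letters and 0.20 in the 39 without. For the YY1 letters the medians were 0.31 in 13 members and 0.19 in 49, a contrast that was not tested.

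Many members start near a neighbour that is read in the other direction. Of the 62, 23 (37.1%) had another gene's start on the opposite strand at most 1000 bases upstream, against 16.0% of tested genes and 12.2% of all genes. One such pair holds 2 members: Mrps11, a small-subunit protein, and Mrpl46, a large-subunit protein, start 42 bases apart. Mrps12 lies 147 bases from Sars2, the mitochondrial seryl-tRNA synthetase, and Mrpl47 lies 308 bases from Ndufb5, a subunit of respiratory complex I.

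On 3 of the 12 arrays nearly all members deviated in the same direction. The deviation of each member from its own mean over the 12 arrays was taken on the log2 scale, and its median over the 71 members is given for each array. In wild-type whole leukemia it was -0.07, 0.11 and -0.09 on arrays 1 to 3. In knockout whole leukemia it was 0.11, -0.58 and -0.11. In wild-type L-GMP it was -0.08, 0.33 and 0.11, and in knockout L-GMP it was 0.05, 0.37 and -0.04. The low array was knockout whole leukemia 2 and the high ones were both L-GMP arrays numbered 2. The median over all genes tested stayed between -0.02 and 0.02. The deposited arrays have similar median intensities (36.9 to 39.3). All-gene medians, here and in the comparisons below, would therefore lie near 0 whatever the members do. Knockout whole leukemia 2 held the lowest value of 48 members, a place it took in 20.3% of all genes, and only 1 member lay above its own mean there. Knockout L-GMP 2 held the highest value of 36 members (12.9% of all genes) and wild-type L-GMP 2 that of 20 (8.7%). On those 2 arrays 67 and 70 of the 71 members lay above their own mean.

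**Figure D1:**
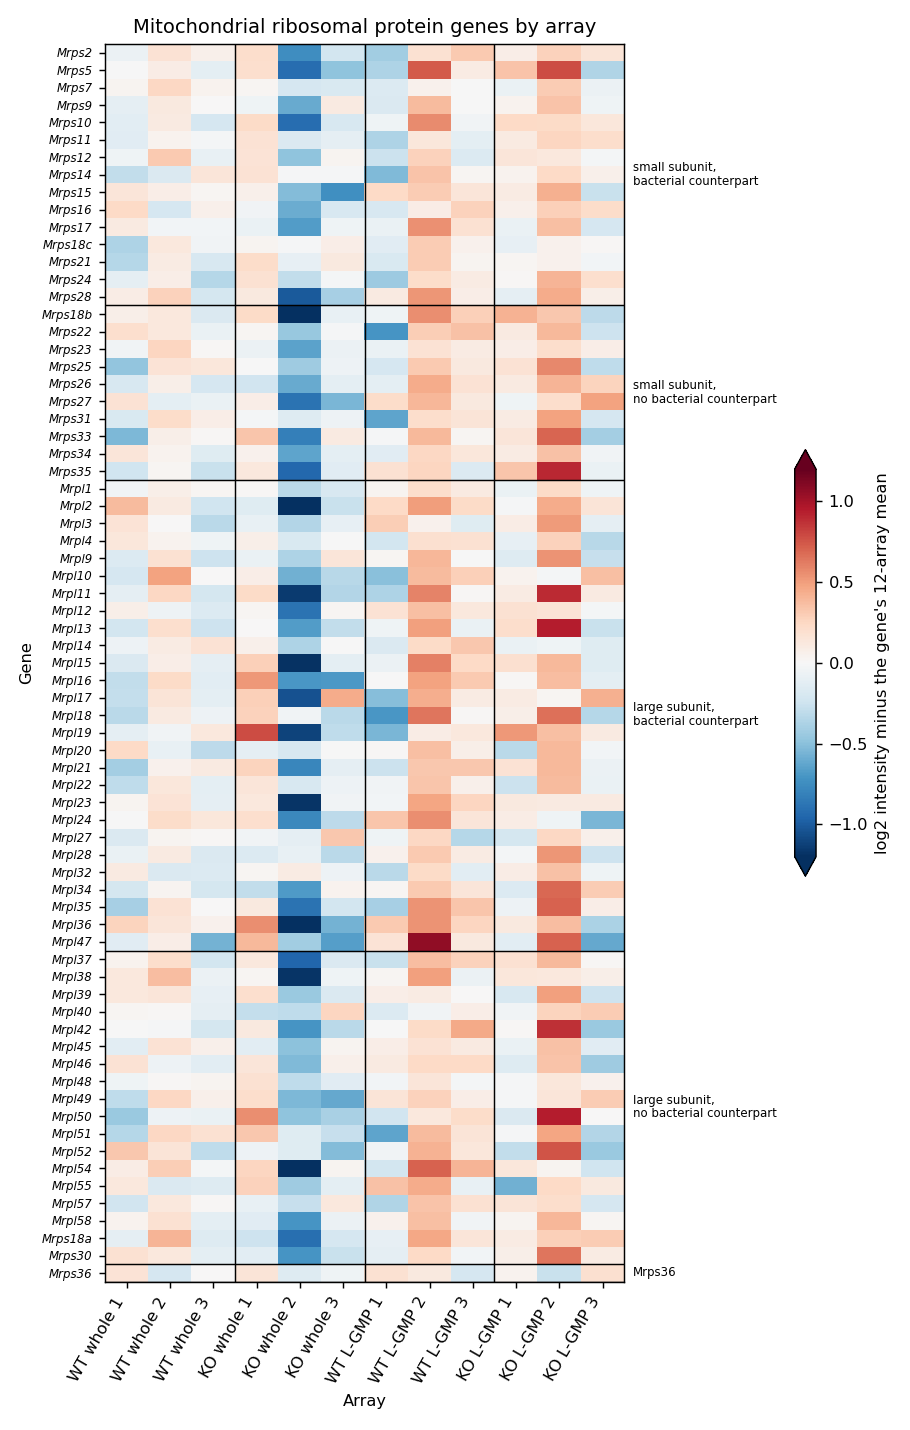
Log2 intensity of the 71 members on the 12 arrays as the difference from each gene's own mean (colour scale in log2 units, blue below and red above), with genes in rows by subunit and bacterial counterpart and arrays in columns by group. Knockout whole leukemia 2 is blue in nearly every row, and wild-type L-GMP 2 and knockout L-GMP 2 are mostly red.

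The array of knockout whole leukemia 2 stood apart on other measures too. It lay at 67.4 on the first principal component, a component with 32.4% of the variance on which the remaining 11 arrays ran from -24.2 to 18.5. The mean log2 intensity of 8 tested erythroid marker genes was 9.57 on it and 5.40 to 6.30 elsewhere. That of 12 neutrophil genes was 11.5, against 6.46 to 10.14. Genes of the G2/M phase averaged 8.99 (6.74 to 8.63 elsewhere) and T and NK cell genes 5.55 (4.77 to 5.04), both highest on it, and 6 target genes of MLL-AF9 averaged 5.91, lowest on it (6.41 to 7.66). Its upper quartile of intensity, 79.32, was below the range of the others, 81.7 to 89.13, which wild-type L-GMP 2 topped. Knockout L-GMP 2 had the lowest value of the second component, -41.3. It also had the highest mean of 8 measured mast cell, basophil and eosinophil genes, 7.69 against 5.36 to 6.38 elsewhere. The part of these in the members' differences was not tested. The members' counts and medians in each comparison with whole leukemia of the knockout are given with and without knockout whole leukemia 2, called the low array. In bulk samples fewer cells of a type and less RNA per cell cannot be told apart.

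**Figure D2:**
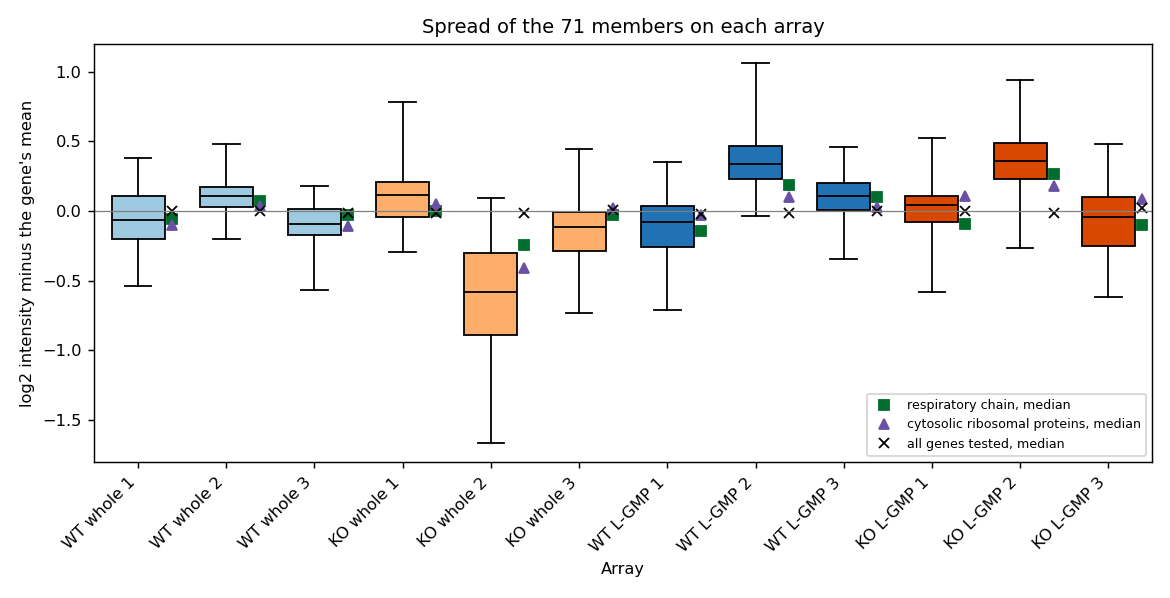
Distribution over the 71 members of log2 intensity minus the gene's 12-array mean, by array (box, quartiles; line, median; whiskers, lowest and highest member), with the medians of respiratory chain subunits, cytosolic ribosomal proteins and all genes tested as symbols beside each box. The members' medians run from -0.58 in knockout whole leukemia 2 to 0.37 in knockout L-GMP 2.

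The labels were checked on Prkaa1 and on the genes of the L-GMP gate. Prkaa1, which encodes the α1 catalytic subunit of AMPK, had log2 intensities of 8.69, 7.72 and 8.32 in whole leukemia of the wild type and 7.40, 7.45 and 6.95 in that of the knockout. In L-GMP it read 8.33, 7.99 and 8.12 and then 7.31, 6.83 and 6.87. The genotypes did not overlap in either population. Cd34, the stem and progenitor antigen of the gate, read 9.45 to 10.05 on the 6 L-GMP arrays. In whole leukemia it read 8.35 to 9.38 in the wild type and 5.54 to 7.05 in the knockout. The other genes of the gate, Kit, Fcgr3 and Fcgr2b, overlapped between the populations in each genotype. Their L-GMP minus whole differences in the wild type were 0.56 ± 0.47, -0.32 ± 0.17 and -0.05 ± 0.29 in that order. In the knockout they were 1.14 ± 0.47, 0.08 ± 0.17 and 0.46 ± 0.29. Of the genes of the gate, Cd34 alone separated the populations.

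The first comparison set the progenitor fraction, L-GMP, against whole leukemia, as the mean of both genotypes. Of the 71 members 69 had a difference above 0, against 51.4% of all genes tested, and the median was 0.22 on the log2 scale against 0.00 over all genes. None of the members was called by limma at a Benjamini-Hochberg adjusted p under 0.05, nor was any gene (0% of 17749), and the lowest adjusted p of a member was 0.655. At an unadjusted p under 0.05 there were 7 members, all with a positive difference, against 3.9% of all genes in that direction. In 0 members did all 6 L-GMP arrays lie above all 6 whole-leukemia arrays, against 0.152% of all genes. The members' median standard error was 0.16, which gives a median 95% interval of 0.35 to either side. Without knockout whole leukemia 2 the count above 0 was 61 of 71 (50.9% of all genes) and the median 0.11. Without both knockout arrays numbered 2 it was 54 and 0.06. Markers of mature myeloid cells differed between the populations as well: 12 neutrophil genes averaged 7.62 to 11.5 in whole leukemia and 6.46 to 8.56 in L-GMP, and 10 monocyte genes 8.76 to 9.15 against 8.02 to 8.64 in the wild type, without overlap, and 7.96 to 8.54 against 7.38 to 8.07 in the knockout. Their part in the members' difference was not tested.

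The class medians lay between 0.18 and 0.25. All 15 small-subunit proteins with a bacterial counterpart had a difference above 0, with a median of 0.18, as did all 10 without a counterpart, with 0.25. Of the large-subunit proteins with a counterpart 25 of 27 lay above 0 with a median of 0.22, and all 18 without one did, also with 0.22. Without the low array the medians in the same order were 0.07, 0.14, 0.14 and 0.09, with 13, 9, 22 and 17 members above 0. Differences between the classes were not tested.

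Mrps26, a small-subunit protein with no bacterial counterpart, had the lowest p of the members. Its log2 intensity was 6.93, 7.20 and 6.92 in wild-type and 6.90, 6.52 and 7.01 in knockout whole leukemia. In L-GMP it was 7.01, 7.57 and 7.30 in the wild type and 7.23, 7.53 and 7.39 in the knockout. All 3 knockout L-GMP arrays lay above all 6 whole-leukemia arrays, and in the wild type the populations overlapped at L-GMP 1. L-GMP minus whole leukemia was 0.42 ± 0.12 (SE, 6 arrays against 6, 95% interval 0.16 to 0.69, limma adjusted p = 0.655), a ratio of 1.34, and 0.35 without knockout whole leukemia 2.

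Mrps27, a pentatricopeptide protein of the small subunit that binds RNA, read 6.26, 5.97 and 6.01 in wild-type whole leukemia and 6.17, 5.20 and 5.54 in the knockout, against 6.31, 6.49 and 6.21 in wild-type L-GMP and 6.04, 6.30 and 6.57 in the knockout. The 2 lowest values were knockout whole leukemia 2 and 3, and the populations overlapped in both genotypes. The difference was 0.46 ± 0.16 (limma adjusted p = 0.661) and 0.35 without knockout whole leukemia 2.

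Mrpl34, a small protein of the large subunit with a bacterial counterpart, read 7.48, 7.72 and 7.48 in wild-type and 7.39, 7.01 and 7.73 in knockout whole leukemia. In L-GMP it read 7.71, 8.0 and 7.83 in the wild type and 7.52, 8.38 and 7.99 in the knockout. Knockout L-GMP 2 was the highest and knockout whole leukemia 2 the lowest, and the populations overlapped in each genotype. The difference was 0.44 ± 0.16 (limma adjusted p = 0.661) and 0.345 without knockout whole leukemia 2.

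Mrpl2, which sits at the peptidyl transferase centre, had the largest difference, 0.52 ± 0.21 (limma adjusted p = 0.661), and 0.32 without knockout whole leukemia 2. Its values were 8.14, 7.87 and 7.52 in wild-type whole leukemia and 7.62, 6.37 and 7.49 in the knockout. The L-GMP values were 8.0, 8.26 and 7.99 in the wild type and 7.75, 8.21 and 7.92 in the knockout. The 6.37 of knockout whole leukemia 2 was over 1 log2 unit below every other array, while in the wild type the highest whole-leukemia value exceeded 2 of the L-GMP values. The other members with an unadjusted p under 0.05 were Mrps18a (0.41 ± 0.16), Mrps35 (0.48 ± 0.21) and Mrps30 (0.31 ± 0.14), each with a limma adjusted p of 0.661, and without the low array they gave 0.29, 0.32 and 0.22. At the other end were Mrpl27, with -0.01 ± 0.12, and Mrpl4, with 0.00 ± 0.12, the 2 members below 0. For Mrpl4 the 95% interval ran from -0.26 to 0.26.

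**Figure D3:**
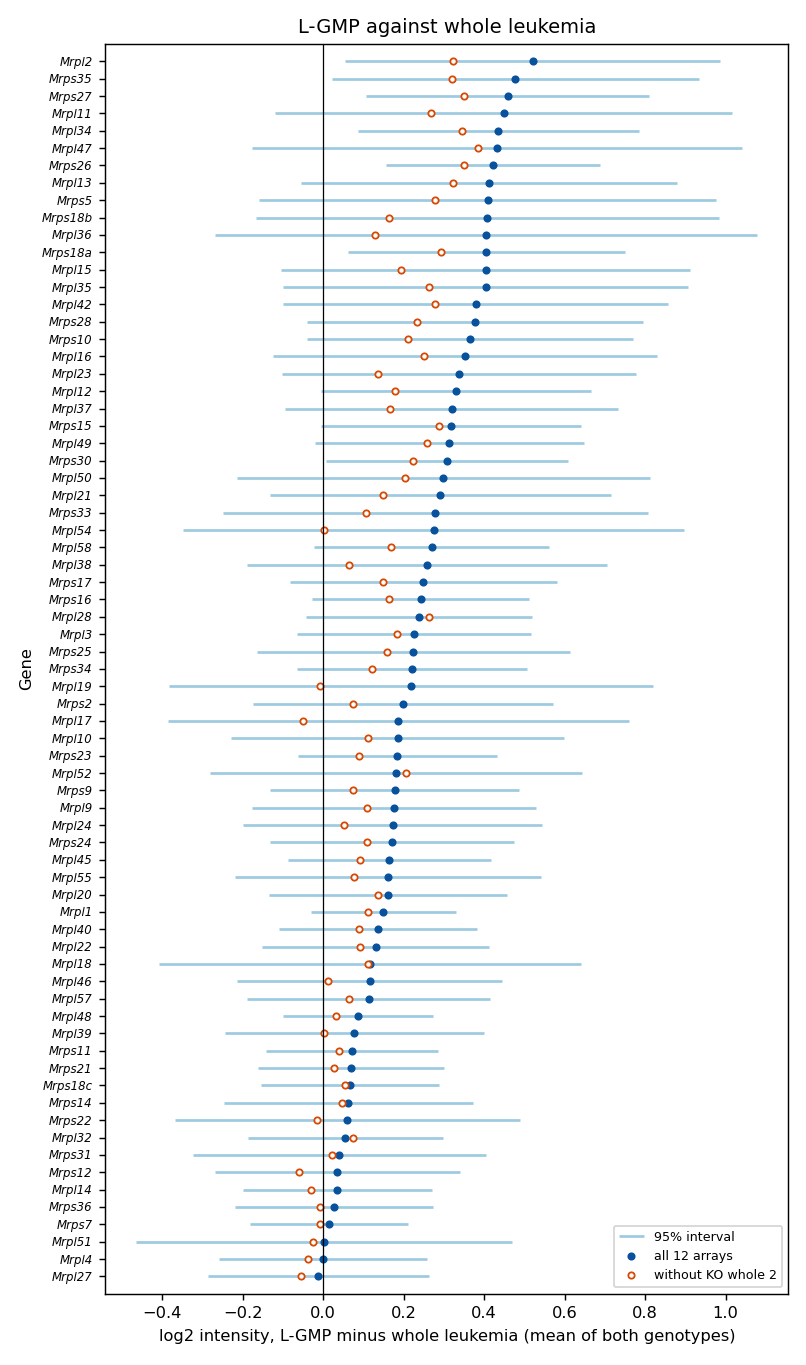
Difference in log2 intensity between L-GMP and whole leukemia (mean of both genotypes) for each of the 71 members, sorted, with its 95% interval from limma (filled points and lines, 12 arrays) and the difference without knockout whole leukemia 2 (open points). Filled points run from -0.01 for Mrpl27 to 0.52 for Mrpl2, and most open points lie nearer to 0.

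Within the knockout the members' differences between the populations had a median of 0.31, and 67 of 71 lay above 0 (52.4% of all genes). No member and no gene was called (0% of 17749, lowest adjusted p of a member 0.671 by limma). At an unadjusted p under 0.05 there were 11 members, against 4.3% of all genes in that direction. In 8 members, Mrpl2, Mrpl38, Mrpl58, Mrps16, Mrps18a, Mrps23, Mrps26 and Mrps30, all 3 L-GMP arrays lay above all 3 whole-leukemia arrays, which 5.49% of all genes did. Mrpl58, a peptidyl-tRNA hydrolase built into the large subunit that rescues stalled ribosomes, was one of them, with 6.64, 6.07 and 6.71 in whole leukemia and 6.81, 7.18 and 6.80 in L-GMP. Its difference was 0.45 ± 0.19, and 0.25 ± 0.16 without the low array. Mrps16, a small-subunit protein with a bacterial counterpart, read 9.31, 8.76 and 9.16 in whole leukemia and 9.41, 9.64 and 9.57 in L-GMP, a difference of 0.46 ± 0.17, and 0.30 ± 0.16 without it. In Mrps23, which has no counterpart, whole leukemia read 7.10, 6.53 and 7.10 and L-GMP 7.25, 7.38 and 7.25, so that the other arrays of each side lay together and array 2 of whole leukemia below them. The difference was 0.38 ± 0.16, and 0.19 ± 0.12 without that array. The lowest p of the members belonged to Mrps30 (0.64 ± 0.19), Mrps26 (0.57 ± 0.17) and Mrps18a (0.69 ± 0.22), each with a limma adjusted p of 0.671, and without the low array they gave 0.475, 0.425 and 0.46. The 4 members below 0 included Mrps21 (-0.06 ± 0.15), Mrps18c (-0.04 ± 0.14) and Mrpl27 (-0.02 ± 0.17). Without knockout whole leukemia 2 the members' median was 0.13 with 57 above 0 (52% of all genes), and 3 members in place of 11 had an unadjusted p under 0.05. Without knockout L-GMP 2 the median was 0.18 with 54 above 0, and without both it was 0.00 with 36 above 0.

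Within the wild type the median was 0.12, and 57 of 71 members lay above 0 (48.8% of all genes). No member and no gene was called (0%, adjusted p = 1 for all members by limma), and no member had an unadjusted p under 0.05. In Mrpl12 and Mrpl47 the L-GMP arrays lay above the whole-leukemia arrays, which 4.89% of all genes did. Mrpl12, the stalk protein that also binds the mitochondrial RNA polymerase, read 7.63, 7.50 and 7.40 in whole leukemia and 7.74, 7.92 and 7.69 in L-GMP, a difference of 0.28 ± 0.21. Mrpl47 read 6.37, 6.59 and 5.94 against 6.67, 7.57 and 6.62, a difference of 0.66 ± 0.39. Among the 14 members below 0 the lowest p belonged to Mrps7, with -0.14 ± 0.13, Mrps11, with -0.08 ± 0.14, and Mrps12, with -0.11 ± 0.19. Mrps7, which helps to start assembly of the small subunit, read 6.68, 6.90 and 6.69 in whole leukemia and 6.48, 6.70 and 6.64 in L-GMP, with overlap. The wild-type median depended on single arrays: without L-GMP 2 it was 0.01 with 39 members above 0, and without L-GMP 1 it was 0.25 with 65. In each of these fits the whole-leukemia array of the same number was kept.

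The populations were also compared within each array number. The members' median L-GMP minus whole difference was -0.04, 0.23 and 0.20 for wild-type numbers 1, 2 and 3, and -0.09, 0.95 and 0.07 for the knockout. Number 2 of the knockout, which sets the highest array against the lowest, had 70 of 71 members above 0, and knockout numbers 1 and 3 had 29 and 42. In the wild type 34, 64 and 60 members were above 0 for numbers 1, 2 and 3. Over all genes 46.7% to 53.2% lay above 0 in the 6 pairs, with medians between -0.02 and 0.02.

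The interaction, the knockout's population difference minus that of the wild type, was above 0 in 57 of 71 members (54.8% of all genes), with a median of 0.20 and 0 called members or genes (0%). Mrps30, the 1 member with an unadjusted p under 0.05, gave 0.68 ± 0.27 (limma adjusted p = 1). Its values were 6.88, 6.82 and 6.58 in wild-type and 6.57, 5.99 and 6.43 in knockout whole leukemia, and 6.59, 6.94 and 6.66 in wild-type and 6.77, 7.34 and 6.80 in knockout L-GMP. The populations did not overlap in the knockout and overlapped in the wild type. Mrps18a (0.56 ± 0.31) and Mrps16 (0.44 ± 0.24) came next, and on the other side Mrps21 (-0.26 ± 0.21), Mrps18c (-0.22 ± 0.20) and Mrpl55 (-0.29 ± 0.34). Without knockout whole leukemia 2 the interaction was 0.51 ± 0.25 for Mrps30, 0 members had an unadjusted p under 0.05, and the members' median was 0.05 with 42 above 0 (53% of all genes).

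The genotypes were compared first in whole leukemia. There the knockout had lower values than the wild type in 60 of 71 members (50.4% of all genes lay below 0), with a median difference of -0.20, and 0 members and 0 genes were called (0%, lowest adjusted p of a member 0.827 by limma). At an unadjusted p under 0.05 there were 4 members, Mrps15, Mrpl2, Mrps18a and Mrps30, against 3.54% of all genes in that direction. In 5 members, Mrps7, Mrps17, Mrps18a, Mrps23 and Mrps30, the knockout arrays lay below all wild-type arrays, which 5.73% of all genes did. Without knockout whole leukemia 2 the split was 38 below and 33 above 0 (48.4% of all genes below), with a median of -0.01, and 0 members had an unadjusted p under 0.05. Neutrophil genes averaged 8.78 to 11.5 in knockout and 7.62 to 10.14 in wild-type whole leukemia. Without overlap, the knockout was lower in monocyte genes (7.96 to 8.54 against 8.76 to 9.15) and in genes of the gate (7.31 to 7.57 against 8.06 to 8.18). MLL-AF9 target genes were also lower (5.91 to 6.69 against 7.15 to 7.52), and erythroid genes higher (5.58 to 9.57 against 5.40 to 5.48), both without overlap. The part of these genes in the result was not tested.

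Mrps15, which binds the small subunit's RNA, had the lowest p here. It read 7.82, 7.75 and 7.70 in wild-type whole leukemia and 7.73, 7.15 and 6.94 in the knockout, so that knockout 1 lay among the wild-type values and knockout 2 and 3 below them. Knockout minus wild type was -0.49 ± 0.21 (limma adjusted p = 0.827), and -0.43 ± 0.23 without knockout whole leukemia 2. Mrps18a, one of 3 paralogs of bacterial S18, read 7.54, 8.06 and 7.50 in the wild type and 7.40, 6.75 and 7.45 in the knockout. The genotypes did not overlap, though wild-type 1 and 3 and knockout 1 and 3 lay close together, and the difference was -0.50 ± 0.22 (limma adjusted p = 0.827), or -0.28 ± 0.20 without the low array.

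The other paralogs are given beside Mrps18a. Mrps18b, which occupies another site in the small subunit, had knockout values of 8.23, 6.61 and 7.91 against 8.07, 8.13 and 7.83, overlapping, with a difference of -0.42 ± 0.37. Without the low array the sign turned, to 0.06 ± 0.24. Mrps18c, the paralog at the bacterial position, read 7.13, 7.08 and 7.17 in the knockout and 6.72, 7.22 and 7.05 in the wild type. The knockout's mean was 0.13 ± 0.14 above that of the wild type. It was 1 of 11 members with a positive difference in whole leukemia, with Mrps21 (0.23 ± 0.15) and Mrps14 (0.16 ± 0.20) the others of lowest p. Mrps12, the decoding-centre protein, gave -0.15 ± 0.19, and 0.04 ± 0.18 without the low array. Mrps36, the dehydrogenase subunit, gave -0.01 ± 0.16 in whole leukemia and 0.03 ± 0.11 between L-GMP and whole leukemia (0.06 and -0.01 without the low array), and had the narrowest range over the 12 arrays, 0.46 (5.03 to 5.49). The widest was that of Mrpl36, 2.21, a large-subunit protein with a bacterial counterpart. It read 8.32, 8.20 and 8.11 in wild-type whole leukemia, and 8.61, 6.39 and 7.49 in the knockout. The L-GMP values were 8.37, 8.59 and 8.31 in the wild type and 8.17, 8.42 and 7.67 in the knockout. Both its highest and its lowest array belonged to knockout whole leukemia.

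In L-GMP the genotypes were split almost evenly. The knockout minus wild-type difference was above 0 in 38 members (54.8% of all genes) and below 0 in 33, with a median of 0.03. No member was called, and 0.00563% of genes were, which is 1 gene. The sign of the median turned when single arrays were left out: it was -0.10 without wild-type L-GMP 1, -0.01 without wild-type L-GMP 3 and -0.10 without knockout L-GMP 2. With array weights it was -0.05. Without wild-type L-GMP 2 it kept its sign, at 0.13. The median standard error of a member was 0.22 and the median half-width of its unadjusted 95% interval 0.50. In a typical member a difference smaller than 0.50 does not reach an unadjusted p under 0.05 at this spread. A call, which rests on the adjusted p, asks for a larger difference still.

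Mrpl24, a large-subunit protein with a bacterial counterpart, was the 1 member whose genotypes did not overlap in L-GMP, against 9.48% of all genes. It read 8.41, 8.64 and 8.23 in the wild type and 8.17, 8.03 and 7.53 in the knockout, a difference of -0.51 ± 0.24 (limma adjusted p = 1). In whole leukemia it read 8.08, 8.30 and 8.22 against 8.28, 7.31 and 7.77, with overlap. As the mean of both populations Mrpl24 gave -0.46 ± 0.17 (limma adjusted p = 0.545), and -0.34 ± 0.14 without knockout whole leukemia 2 (adjusted p = 0.634). In that mean 56 of 71 members lay below 0 (47.4% of all genes), with a median of -0.09, and 0 members were called while 0.0338% of genes were. Mrpl24 was the 1 member with an unadjusted p under 0.05. Without the low array 34 lay below 0 (45.4% of all genes) and the median was 0.00.

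The pair that shares a start region had genotype differences of opposite sign in L-GMP. Mrps11 read 7.24, 7.75 and 7.49 in the wild type and 7.72, 7.87 and 7.82 in the knockout, overlapping only at wild-type L-GMP 2, with a difference of 0.31 ± 0.14 (limma adjusted p = 1). It was the 1 member with an unadjusted p under 0.05 there. Mrpl46 read 7.20, 7.33 and 7.33 in the wild type and 6.93, 7.43 and 6.66 in the knockout, a difference of -0.28 ± 0.21 (adjusted p = 1). The difference between the genes was not tested. The other members of lowest p in L-GMP were Mrpl40 (0.22 ± 0.16), Mrpl32 (0.20 ± 0.15) and Mrpl14 (-0.22 ± 0.15).

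**Figure D4:**
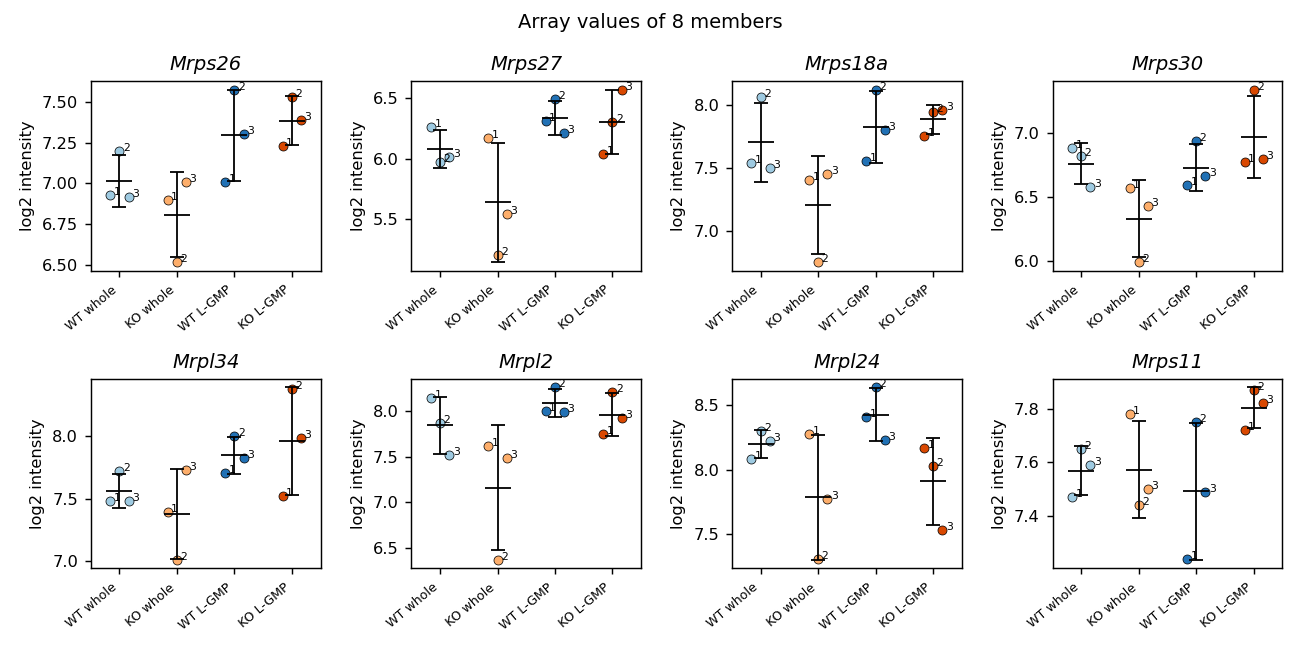
Log2 intensity of 8 members on every array (points, numbered by array; horizontal lines and bars, mean ± SD of 3 arrays) in the 4 groups, with a separate vertical axis for each gene that does not start at 0. Knockout whole leukemia 2 is the lowest point in 7 of the 8 panels, and in Mrps11 wild-type L-GMP 1 is lower.

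The machinery around the ribosome was read from lists of genes, with 0 genes called in any of them in any comparison. Of 13 translation factors and insertion proteins all 13 were above 0 in L-GMP against whole leukemia, with a median of 0.26, and 0.18 without the low array. Oxa1l, which inserts newly made proteins into the inner membrane, read 8.21, 8.18 and 8.17 in wild-type and 7.78, 7.41 and 7.82 in knockout whole leukemia. In L-GMP it read 8.26, 8.25 and 8.19 in the wild type and 8.02, 8.39 and 8.39 in the knockout. Knockout whole leukemia lay below all other groups on all 3 arrays, not on array 2 alone. L-GMP minus whole leukemia was 0.33 ± 0.09 (limma adjusted p = 0.655), and knockout minus wild type in whole leukemia was -0.52 ± 0.13 (adjusted p = 0.609). Without the low array these were 0.26 and -0.385. Tufm, the elongation factor that brings aminoacyl-tRNA, gave 0.47 ± 0.20 and the initiation factor Mtif3 0.26 ± 0.10 between the populations.

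All 16 tested mitochondrial aminoacyl-tRNA synthetases were above 0 with a median of 0.20, and 14 without the low array with 0.135, the lowest p belonging to Ears2 (0.30 ± 0.13), Nars2 (0.32 ± 0.13) and Fars2 (0.35 ± 0.16). The same list held 3 subunits of the glutamyl-tRNA amidotransferase, which completes glutaminyl-tRNA: Qrsl1 gave 0.23, Gatb -0.03 and Gatc -0.003. Of 24 assembly factors 20 were above 0 with a median of 0.07 (18 and 0.04 without the low array), led by Rcc1l (0.29 ± 0.09), Mettl17 (0.26 ± 0.10) and Fastkd2 (0.28 ± 0.11). Of 13 genes of mitochondrial transcription and RNA processing 12 were above 0 with a median of 0.18 (11 and 0.09 without it), among them Tefm, the transcription elongation factor, with 0.36 ± 0.15, Supv3l1, an RNA helicase, with 0.25 ± 0.11, and Elac2, which trims tRNA ends, with 0.32 ± 0.15. Ribosomal proteins under other names were above 0 in 3 of 3: Dap3 with 0.19 ± 0.08, Ptcd3 with 0.47 ± 0.21 and Gadd45gip1 with 0.09 ± 0.10.

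Of 8 transcriptional regulators 6 were above 0 with a median of 0.08, and also 6 without the low array with 0.10. Pprc1, a coactivator of the PGC-1 family, read 7.17, 7.30 and 6.73 in wild-type and 7.43, 6.62 and 6.65 in knockout whole leukemia, against 7.37, 7.48 and 7.33 in wild-type and 7.65, 7.53 and 7.30 in knockout L-GMP, a difference of 0.46 ± 0.15 (limma adjusted p = 0.661). Myc had its lowest value, 6.94, in knockout whole leukemia 2, where the members were lowest, and 7.88 to 9.37 elsewhere. Its difference was 0.70 ± 0.35, and 0.42 ± 0.27 without that array. Gabpa, the DNA-binding subunit of GABP, gave 0.00 ± 0.16, Gabpb1, its partner, 0.16 ± 0.10, and Nrf1 0.01 ± 0.10.

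The 2 gene groups nearest in function were set beside the members. Of 59 tested respiratory chain subunits encoded in the nucleus, 43 were above 0 in L-GMP against whole leukemia, with a median of 0.09. Of 57 cytosolic ribosomal proteins 55 were, with a median of 0.20 against the members' 0.22. Without the low array the medians were 0.06, 0.11 and 0.11 in the same order. In knockout against wild-type whole leukemia the medians were -0.07 for the respiratory chain and -0.04 for the cytosolic ribosome, beside -0.20 for the members. Without the low array they were 0.00, 0.095 and -0.01, so that the cytosolic ribosome's turned sign. On knockout whole leukemia 2 the median deviations were -0.24 and -0.41, beside -0.58. The differences between these groups were not tested.

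The members were more scattered than the typical gene, in a comparison not matched for brightness. Their mean log2 intensities ran from 5.27 to 9.35, while the median over all probe sets was 5.28. The part of brightness in the scatter was not tested. A member's range over the 12 arrays had a median of 1.10 log2 units against 0.68 over all genes tested, and its SD within a group a median of 0.30 against 0.19. Of the 9 members with a second single-symbol probe set, 7 had differences of the same sign between L-GMP and whole leukemia on both. The exceptions were Mrps17, with 0.25 and -0.01, and Mrps18c, with 0.07 and -0.02. Knockout minus wild type, as the mean of both populations, differed in sign between the probe sets of Mrpl10, Mrps5 and Mrps18c. On the probe set used and on the other it was -0.15 and 0.16, -0.14 and 0.23, and 0.02 and -0.09. Mrps18b gave 0.41 on the probe set used (0.16 without the low array) and 0.63 on the other, and Mrpl12 gave 0.33 and 0.49.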

How the data were processed

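The 12 single-colour arrays, of biotin-labelled cDNA amplified with NuGEN kits per the labels, were analysed in 4 groups of 3. As deposited, each probe set has 1 linear intensity per array, from 17.96 to 9108.2, with array medians of 36.9 to 39.3; how background was corrected and arrays normalized is not given in the sources. The number of arrays limits the precision. Values were taken to log2 with no pseudocount or rescaling. Of 33794 probe sets, the platform annotation gave 1 symbol to 23521, several to 1814 and none to 8459. Each gene kept its brightest single-symbol probe set, and 4431 genes with a mean below the 25th percentile of probe sets were left out.

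The fits used limma 3.58.1 (R 4.3.3 with statmod 1.5.0; lmFit and eBayes, 1 mean per group, 8 residual degrees of freedom), in 7 comparisons, with Benjamini-Hochberg adjustment over 17749 genes and a threshold of 0.05. An exact test of 3 arrays against 3 cannot go below p = 0.1. The script was tested on data simulated with independent noise for each gene and array, without an outlying array or a shift shared by genes. Figures were drawn with matplotlib 3.10.9. Start regions came from RefSeq (GRCm38.p6).

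The members and lists were chosen with earlier results of these data known. Mrps28 and Mrpl47 were put with the proteins that have a bacterial counterpart after values were seen, because of their names in current ribosome nomenclature. Members were named by a rule: the 3 of lowest p in each direction per comparison where fewer than 3 were called, a fixed set (Mrpl12, Mrpl58, Mrps12, Mrps30, Mrps36, the Mrps18 paralogs and proteins under other names), up to 3 genes of each related list, and the widest and narrowest range; other members and genes were named after their values were seen.

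Replicate numbers in the labels were checked for pairing. Same-numbered wild-type whole and L-GMP arrays correlated at 0.36, 0.62 and 0.30 in their deviations from the group means. Each whole-leukemia array there correlated best with its own number, so the samples may be paired, though no label says so. In the knockout the correlations were 0.13, 0.09 and 0.43, and own number was best for 2 and 3 but not for 1. No pairing was assumed in the main fits. Alternatives were quantile normalization, other dim filters, the mean of probe sets, array weights, trended variance, fits on the compared groups, arrays left out, replicate blocks and, chosen after seeing the data, scaling to a common 75th percentile.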

Additional observations from a re-analysis of the deposited data

How the results depend on the processing

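No member was called under any alternative run, and in 2 of the 7 comparisons the members' median moved by more than its spread: without both knockout arrays numbered 2 the knockout L-GMP minus whole median was 0.004 and the interaction median -0.096. With 1 array left out in turn, medians ranged from 0.111 to 0.291 for L-GMP against whole leukemia, 0.129 to 0.482 in the knockout, 0.014 to 0.252 in the wild type, -0.326 to -0.011 for genotype in whole leukemia, -0.104 to 0.134 in L-GMP, -0.171 to 0.002 for its mean and 0.048 to 0.369 for the interaction. The lowest adjusted p of a member by limma over these fits was 0.0756, in knockout L-GMP against whole leukemia without knockout whole leukemia 1. In the fit with a replicate block by genotype and number (consensus correlation 0.15 when random) the lowest adjusted p of a member was 0.487 for L-GMP against whole leukemia with the block fixed and 0.442 with it random; the block changed no call of a member, and the medians stayed at 0.220. Differences of named genes turned sign. Between genotypes in whole leukemia, without both knockout arrays numbered 2, Mrps18b was 0.064 (from -0.42), Mrps12 0.039 and Mrps36 0.061; with 1 array left out they ranged from -0.748 to 0.064 (Mrps18b), -0.286 to 0.039 (Mrps12) and -0.103 to 0.082 (Mrps36). Mrps36 was 0.007 with array weights and 0.021 at a common 75th percentile. For L-GMP against whole leukemia Mrpl27 was 0.006 under quantile normalization, Mrpl4 0.013, Mrps12 -0.012 and Mrps36 -0.006 with array weights, and Mrps12 -0.072 without both knockout arrays numbered 2. Nrf1 was -0.017 under quantile normalization, -0.056 with array weights and -0.021 at a common 75th percentile, Gabpa 0.022 and Gatc 0.137 with array weights, and Gadd45gip1 -0.001 without both knockout arrays numbered 2. With 1 array left out these ranged from -0.085 to 0.061 (Mrpl27), -0.084 to 0.07 (Mrpl4), -0.061 to 0.101 (Mrps12), -0.023 to 0.091 (Mrps36), -0.002 to 0.124 (Mrps18c), -0.072 to 0.063 (Nrf1), -0.097 to 0.12 (Gabpa), -0.094 to 0.014 (Gatb) and -0.157 to 0.16 (Gatc). The same ranges were -0.21 to 0.045 for Mrps11 and -0.27 to 0.024 for Mrps12 in the wild type, -0.148 to 0.002 for Mrps21, -0.074 to 0.001 for Mrps18c and -0.132 to 0.108 for Mrpl27 in the knockout, and -0.006 to 0.245 for Mrps18c between genotypes in whole leukemia. The cause was not tested.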
